A study of Mus musculus with 8 samples.

Results

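Enzymes that modify histones and machines that move nucleosomes were followed in sorted mouse CD4 T cells that carried a NIK transgene or did not. The genes were taken by name, as every probe whose platform symbol begins with Hdac, Kdm, Kmt, Setd, Ezh, Smarc or Chd followed by a digit, leaving out Kdm5d. This gave 95 probes for 57 genes out of 16593 genes with a named probe. Of these 57 genes, 44 were measured well enough to be tested, among 7926 genes tested in all.

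Histone deacetylases (HDACs) take acetyl groups off histone tails, and class IIa members shuttle between nucleus and cytoplasm on T cell receptor signals. Lysine methyltransferases (the KMT, SETD and EZH genes) add methyl groups that mark active or silent chromatin, and lysine demethylases (KDM genes) remove them. SMARC genes encode subunits of the SWI/SNF complexes and related ATPases, and CHD genes encode another family of nucleosome remodellers. Ezh2, the catalytic subunit of Polycomb repressive complex 2 (PRC2), trimethylates lysine 27 of histone H3, is induced when T cells are activated, and is needed by activated regulatory T cells to hold their programme.

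The cells came from C57BL/6 mixed bone marrow chimeras, in which lethally irradiated B6.CD45.1 recipients received marrow of NIKtg/CD4Cre/foxp3RFP and B6.Thy1.1/Foxp3RFP donors. NIKtg cells carried a Map3k14 (NIK) transgene at the ROSA26 locus with Cre driven by the CD4 promoter, and were sorted as Thy1.1-negative, GFP-positive CD4 cells. WT cells were sorted as Thy1.1-positive, GFP-negative CD4 cells. No group carried Cre or GFP without the transgene, so these cannot be told apart from NIK. NIKtg and WT cells also came from different donor lines, differing in Thy1.1, which cannot be told apart from NIK either. All 4 groups carried the red reporter of Foxp3, the factor that defines regulatory T cells (Treg). Reporter-positive cells were sorted as Treg and cells negative for it as conventional T cells (Tconv). The groups NIKtg Treg, WT Treg, NIKtg Tconv and WT Tconv held 2 arrays each, from cells taken more than 8 weeks after reconstitution. The labels give neither the animals' age nor whether arrays came from separate or pooled animals, and the p-values below therefore rest on the scatter of the arrays at hand, part of which may be technical.

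Levels below are log2 intensities after background correction and quantile normalization, and a difference of 1 is a doubling. Calls are those with a limma adjusted p (Benjamini and Hochberg over 7926 genes) under 0.05, with n = 2 arrays per group throughout. Arrays of 1 group correlated at r of 0.9889 to 0.9942 across genes, and mean raw intensity was lowest in NIKtg Treg (461.1 and 473.6, against up to 776.8 elsewhere). Foxp3 marked the sorts, at 6.73 higher in NIKtg Treg than NIKtg Tconv and 5.09 higher in WT Treg than WT Tconv. Map3k14 itself was read by 1 probe, at 9.65 and 9.76 in NIKtg Treg, 9.61 and 9.63 in WT Treg, 9.60 and 9.59 in NIKtg Tconv, and 10.20 and 10.03 in WT Tconv. It was not called higher in NIKtg cells (0.09, adjusted p = 0.579, in Treg, and lower by 0.52, adjusted p = 0.0102, in Tconv, a call lost without NIKtg Tconv 1 or WT Tconv 1, with adjusted p up to 0.0616). Where in the transcript this probe lies was not known here, and NIKtg below is the arrays' label. Nfkb2, encoding the precursor protein processed in the NIK pathway, was 1.02 higher in NIKtg Treg than WT Treg (adjusted p = 0.00198) and 1.46 higher in NIKtg Tconv than WT Tconv (adjusted p = 0.000291).

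The kB consensus, the letters bound by NF-kB dimers, and the E2F consensus, the letters bound by cell cycle factors, were looked for in RefSeq promoters (build GRCm38.p6, 250 bases before to 50 after an annotated start). A promoter was present for 49 of the 57 genes (66 promoters), and for 8 of the 9 chromatin genes called in NIKtg Tconv below. No promoter was present for Chd1, Hdac1, Hdac3, Hdac10, Kdm4b, Kdm6b, Kmt2b and Smarce1. The 4 promoters shown are those of called genes that hold either motif, in capitals, on the strand of the gene.
Ezh2, chr6:47594981-47595280 (-): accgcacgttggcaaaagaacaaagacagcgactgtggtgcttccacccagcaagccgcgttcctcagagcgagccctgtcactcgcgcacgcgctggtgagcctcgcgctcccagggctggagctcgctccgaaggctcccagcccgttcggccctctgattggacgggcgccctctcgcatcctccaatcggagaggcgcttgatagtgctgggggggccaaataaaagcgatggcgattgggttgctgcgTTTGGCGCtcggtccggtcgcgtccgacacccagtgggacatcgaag
Chd4, chr6:125095913-125096212 (+): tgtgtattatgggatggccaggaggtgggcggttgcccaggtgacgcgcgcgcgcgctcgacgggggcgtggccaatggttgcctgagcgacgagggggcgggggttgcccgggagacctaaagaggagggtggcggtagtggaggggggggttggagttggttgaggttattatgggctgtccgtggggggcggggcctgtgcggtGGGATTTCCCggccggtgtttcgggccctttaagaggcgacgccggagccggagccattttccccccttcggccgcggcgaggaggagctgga
Kdm5b, chr1:134559928-134560227 (+): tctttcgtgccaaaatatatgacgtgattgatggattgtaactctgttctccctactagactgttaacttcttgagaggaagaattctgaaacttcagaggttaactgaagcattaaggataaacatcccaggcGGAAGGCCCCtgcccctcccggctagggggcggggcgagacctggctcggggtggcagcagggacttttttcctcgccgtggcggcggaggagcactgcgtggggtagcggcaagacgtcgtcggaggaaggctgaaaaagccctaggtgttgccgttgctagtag
Smarcc2, chr10:128458986-128459285 (+): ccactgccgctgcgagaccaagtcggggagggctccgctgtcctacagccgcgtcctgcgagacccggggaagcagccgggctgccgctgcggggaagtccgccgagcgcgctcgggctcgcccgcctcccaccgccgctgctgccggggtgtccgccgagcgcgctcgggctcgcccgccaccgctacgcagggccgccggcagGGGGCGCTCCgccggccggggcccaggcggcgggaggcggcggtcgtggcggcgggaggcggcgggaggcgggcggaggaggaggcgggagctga
In Ezh2 the capitals are an E2F match that begins 3 bases past the start. In Chd4, Kdm5b and Smarcc2 they are kB matches that begin 43, 116 and 45 bases before it, read on the opposite strand in Kdm5b. The Chd4 promoter is 1 of the 2 present for that gene. The E2F letters searched were TTTCCCGC, TTTCGCGC, TTTGCCGC and TTTGGCGC on both strands, which 2.26% of 32851 promoters of this length held, and 3 of the 49 chromatin genes (Ezh2, Kmt5c and Smarcd1). Counted by promoter, as the share over all is, the E2F letters lay in 3 of the 66 chromatin gene promoters. The kB consensus lay in 8.46% of all promoters and in 7 of these 66. These were promoters of 7 of the 49 genes (Chd4, Kdm1b, Kdm2b, Kdm5b, Smarca2, Smarcc2 and Smarcd1). CCAAT, a common promoter box, lay in 37.4% of all promoters and in 30 of these 66, from 25 of the 49 genes. These matches are descriptions of letters in a window and no factor's binding was measured.

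NIKtg Treg had lower Chd1, Ezh2, Setd5 and Smarcb1 than WT Treg and higher Hdac1, Hdac10 and, by its brighter probe only, Chd1l. The change was at least 2-fold for 1 gene, Chd1, at 2.92-fold lower in NIKtg Treg. Of 44 genes, 7 were called (15.9%), 3 higher and 4 lower, against 19.9% of all genes called, 10.4% higher and 9.45% lower. An unadjusted p under 0.05 was reached by 11 of the 44. The median difference was 0.10 over the 44 genes and 0.06 over all genes. The share of chromatin genes called was not above that of all genes. In bulk samples, fewer cells of a type and less RNA per cell cannot be told apart. The count came to 1 without NIKtg Treg 1, 2 without WT Treg 2, and 0 without WT Treg 1, where limma still gave 7 genes at an unadjusted p under 0.05. Scaling each array to the median of all its probes, most of them undetected, moved the all-gene median to -0.27 and gave 0 higher and 7 lower, with 8.19% of all calls higher against 52.4% under quantile normalization.

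In Tconv, Ezh2 was 3.25-fold higher in NIKtg cells than in WT cells and Smarcb1 1.42-fold higher. Hdac7, Hdac4, Kdm5b, Kdm6b, Smarcc2, Chd4 and, by its brighter probe only, Chd1l were lower, by 1.35-fold (Chd4) to 1.78-fold (Kdm5b). Of 44 genes, 9 were called (20.5%), 2 higher and 7 lower, against 30.1% of all genes, 12.9% higher and 17.2% lower. An unadjusted p under 0.05 was reached by 15 of the 44. The median was -0.11 over the 44 genes and -0.08 over all. The count came to 2 without NIKtg Tconv 1 and 3 without WT Tconv 1, and to 6 to 12 without any other array. Median scaling moved the all-gene median to 0.09 and gave 3 higher and 2 lower, with 68.0% of all calls higher against 42.9%.

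The NIKtg-minus-WT differences of the subsets often had opposite signs. That was so for 30 of 44 genes (68.2%), as for 67.3% of all genes. Ezh2, Smarcb1 and Chd1l were called in both subsets, each in opposite directions (6.82% of the 44 genes, against 8.05% of all genes). A further 4 genes were called in Treg and not in Tconv (9.09%, against 9.84% of all genes) and 6 in Tconv and not in Treg (13.6%, against 20%). The other 31 were called in neither (70.5%, against 60.1%). Because a call in 1 subset does not show that the subsets differ, the difference between the effects was tested itself, as Treg minus Tconv. It was called for 11 genes (25.0%), against 39.2% of all genes, with 8 of them higher (23.0% of all genes) and 3 lower (16.1% of all genes). The lower ones were Ezh2, Chd1 and Smarcb1. The higher ones were Hdac1, Hdac7, Smarcc2, Chd4, Kdm8, Setd1a, Kdm5b and, by its brighter probe only, Chd1l. Median scaling moved the all-gene median of this difference from 0.15 to -0.38 and gave 0 higher and 7 lower, with 14.8% of all calls higher against 58.8%. The plot of the NIK effect in Treg against that in Tconv shows the lower ones at the upper left and the higher ones at the lower right.

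**Figure D1:**
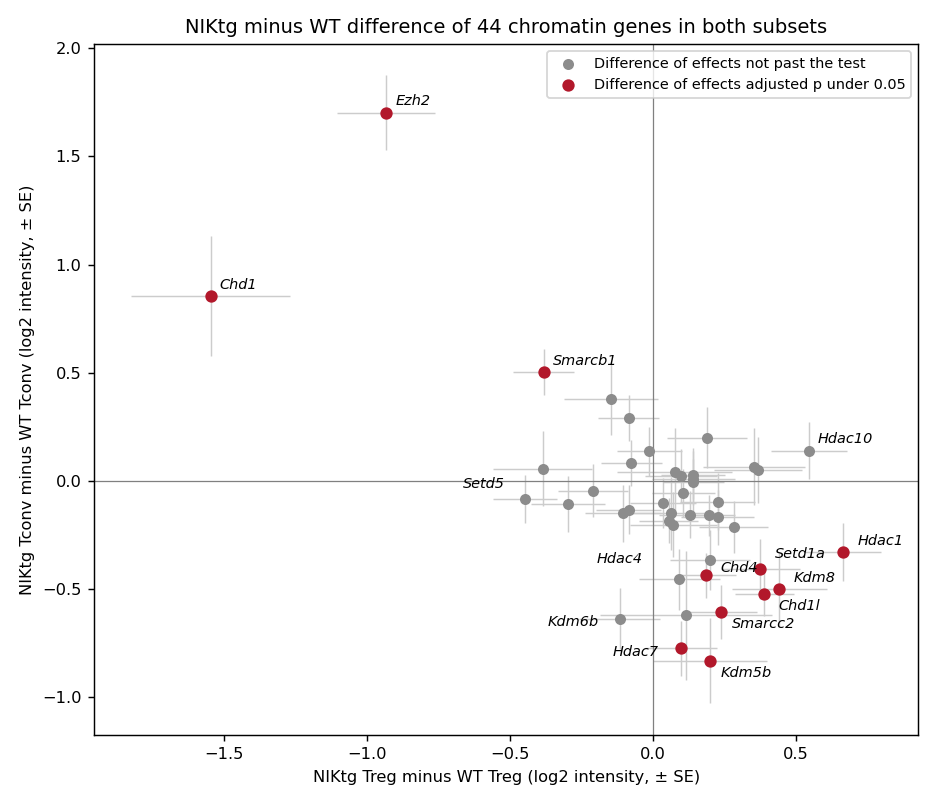
NIKtg minus WT difference in Treg (x axis) against that in Tconv (y axis), in log2 intensity, for 44 chromatin genes, with bars for the SE of limma's fit. Red points are the 11 genes whose difference between subsets was called, and Ezh2 (-0.93 and 1.70) and Chd1 (-1.55 and 0.85) lie apart at the upper left.

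Treg and Tconv of the same genotype were also compared. WT Treg had higher Ezh2, Smarcb1 and Smarcal1 than WT Tconv. Lower in WT Treg were Setd4, Kdm8, Smarca2, Smarcc2, Hdac5 and, by its brighter probe only, Chd1l. These 9 calls (20.5%) compare with 24.0% of all genes, and the 3 higher and 6 lower ones with 11.1% and 12.9%. The largest was a 1.67-fold difference, for Ezh2. NIKtg Treg had lower Chd1, Ezh2, Setd5 and Smarcc1 than NIKtg Tconv. Higher in NIKtg Treg were Hdac7, Hdac6, Hdac1, Hdac10, Setd1a, Hdac4, Chd4, Hdac3 and, by its brighter probe only, Chd1l. These were 13 calls (29.5%), against 39.9% of all genes, with 9 higher and 4 lower beside 23.1% and 16.9% of all genes. Both comparisons share arrays with those of NIK above, so their values are no separate evidence. Without WT Treg 1, WT Treg 2 or WT Tconv 1 the WT count was 2, and without WT Tconv 2 it was 4. Kdm8 was at -0.63 there, and at -0.41 without WT Tconv 1 (adjusted p = 0.156). Median scaling gave 1 higher and 1 lower in the WT comparison, and 0 higher and 23 lower in the NIKtg one, where 10.5% of all calls were higher against 57.8%. The NIKtg count was 5 without NIKtg Tconv 2, 7 without NIKtg Treg 1 and 8 without NIKtg Tconv 1.

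**Figure D2:**
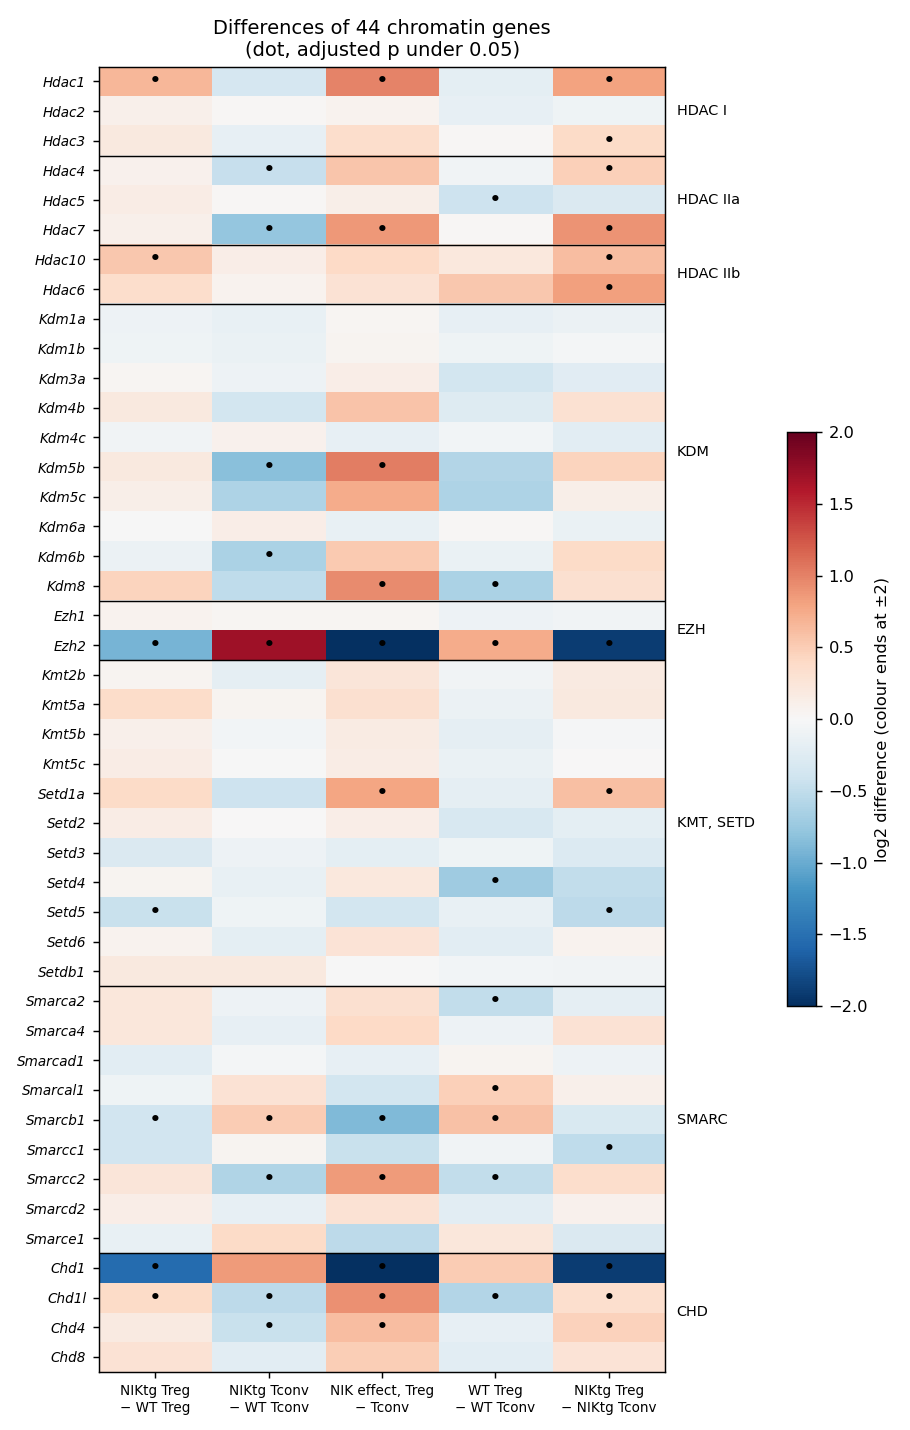
Log2 differences of the 44 chromatin genes (rows, by family) in the 5 comparisons (columns), with red for higher and blue for lower in the group named first, and a dot for an adjusted p under 0.05; colours end at 2 in either direction. The deepest colours are those of Ezh2 and Chd1, and 22 of the 44 genes carry at least 1 dot (50%, against 58.7% of all genes).

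Ezh2, whose promoter with the E2F letters stands above, changed most among the methyltransferases. Its log2 level was 7.55 and 7.90 in NIKtg Treg, 8.81 and 8.51 in WT Treg, 9.77 and 9.47 in NIKtg Tconv, and 7.86 and 7.98 in WT Tconv. Both NIKtg Treg arrays lay below both WT Treg arrays, and both NIKtg Tconv arrays lay above every other array. It fell by 0.93 in Treg (SE 0.17, adjusted p = 0.012) and rose by 1.70 in Tconv (SE 0.17, adjusted p = 0.000674), a difference of effects of -2.63 (SE 0.24, adjusted p = 0.000537). In WT cells Ezh2 was 0.74 higher in Treg than in Tconv (SE 0.17, adjusted p = 0.0196), and in NIKtg cells it was lower in Treg by 1.89 (difference -1.89, SE 0.17, adjusted p = 0.000247). A second, dimmer Ezh2 probe was detected on both WT Treg and both NIKtg Tconv arrays and on no other. A group with no detected array has only a bound, set against the dimmest detected probe of each array or the probe's own signal, whichever is higher. By that bound this probe was at least 1.02-fold lower in NIKtg Treg than in WT Treg (adjusted p = 0.00826 over probes) and at least 1.49-fold higher in NIKtg Tconv than in WT Tconv (adjusted p = 0.0147). The Treg call was lost without NIKtg Treg 1 or WT Treg 1, with adjusted p of 0.0575 to 0.0742. The WT call was lost without WT Treg 1, WT Tconv 1 or WT Tconv 2, with adjusted p up to 0.117. Ezh1, the alternative catalytic subunit, gave 0.08 in Treg (adjusted p = 0.813) and 0.04 in Tconv (adjusted p = 0.89), but its second probe, detected on both NIKtg Treg arrays and 1 WT Treg array, gave 0.78 in Treg (adjusted p = 0.0105 over probes).

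Partners of EZH enzymes were listed beside it. Of 7 tested, 2 fell in Treg, beside 9.45% of all genes, and 2 rose in Tconv, beside 12.9% of all genes. The 2 were the same in both subsets. The list's median was -0.33 in Treg and 0.25 in Tconv. Rbbp7, a histone-binding subunit shared by PRC2 and deacetylase complexes, fell by 1.87 in Treg (SE 0.26, adjusted p = 0.00411) and rose by 2.04 in Tconv (SE 0.26, adjusted p = 0.00157). Of its 3 other kept probes, 2 were called the same way in both subsets and the dimmest, detected on no NIKtg array, was not called in either. Aebp2, an accessory subunit that stimulates PRC2, fell by 0.58 in Treg (adjusted p = 0.0263) and rose by 0.71 in Tconv (adjusted p = 0.00911). Those Aebp2 calls were lost without NIKtg Treg 1, WT Treg 1 or WT Treg 2, and without NIKtg Tconv 1 or WT Tconv 1 (adjusted p up to 0.15). The core subunits Eed and Suz12 were not called in either subset.

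Several genes of DNA replication and mitosis moved beside Ezh2. Of 14 proliferation genes tested, 5 fell and 2 rose in NIKtg Treg, beside 9.45% and 10.4% of all genes. In NIKtg Tconv 6 rose and 1 fell, beside 12.9% and 17.2% of all genes. The list medians were -0.18 in Treg and 0.40 in Tconv, beside 0.06 and -0.08 for all genes. Cdk1, the mitotic kinase, was detected on no NIKtg Treg array and was at least 1.47-fold lower there than in WT Treg (adjusted p = 0.00548). In Tconv it differed by 1.73 (adjusted p = 0.000565), with 1 of the 2 WT Tconv arrays detected. Top2a, a topoisomerase of dividing cells, differed by -0.97 and 1.40, and Tyms, which makes thymidylate, by -1.14 and 1.61, all called. Mcm2 was called the other way in both subsets. It averaged 9.44 in NIKtg Treg against 8.86 in WT Treg (adjusted p = 0.0127). In Tconv it averaged 8.93 in NIKtg cells against 9.42 in WT cells (adjusted p = 0.0136). These Mcm2 calls were lost without NIKtg Treg 1, WT Treg 1 or WT Treg 2, and without NIKtg Tconv 1 or WT Tconv 1. Tk1 was called higher in both subsets. It averaged 8.77 in NIKtg Treg against 7.93 in WT Treg (adjusted p = 0.0211), and 8.72 in NIKtg Tconv against 6.97 in WT Tconv (adjusted p = 0.000839). Its Treg call was lost without NIKtg Treg 1, WT Treg 1 or WT Treg 2, and its dimmer probe was not called in Treg (adjusted p = 0.184 over probes). Over the 8 arrays the correlation of Ezh2 with these 14 genes ran from r = -0.833 (Mcm2) to r = 0.967 (Cdk1, some of whose values were not above background). It was 0.961 for Top2a, 0.923 for Tyms, 0.356 for Mcm5, 0.334 for Tk1 and -0.609 for Mcm7. These correlations describe arrays that share groups, and the part of cycling cells in the Ezh2 difference was not tested. Summed linear levels of the list were 9690 and 9917 in NIKtg Treg, 11540 and 10815 in WT Treg, 12362 and 12269 in NIKtg Tconv, and 10611 and 10527 in WT Tconv. Ccnb2, Ccna2 and Bub1 of this list were detected on no array.

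**Figure D3:**
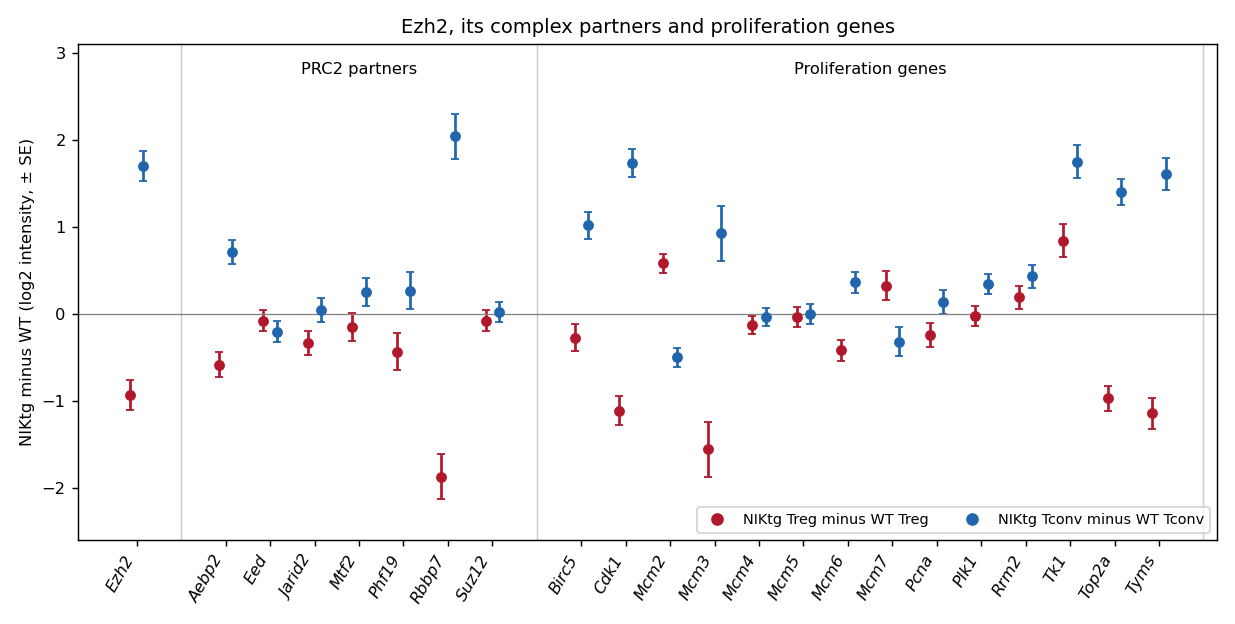
NIKtg minus WT difference (log2 intensity, bars for the SE of limma's fit) of Ezh2, 7 partners of PRC2 and 14 proliferation genes, with Treg in red left of Tconv in blue. Ezh2, Aebp2, Rbbp7, Cdk1, Top2a and Tyms lie below 0 in Treg and above 0 in Tconv, while Tk1 lies above 0 in both. Mcm2 lies above 0 in Treg and below 0 in Tconv. Cdk1 was not above background in NIKtg Treg, so its Treg point is not a measured size.

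Among the deacetylases, Hdac1, a class I enzyme of the NuRD, Sin3 and CoREST complexes, stood highest in NIKtg Treg. It measured 10.93 and 10.79 in NIKtg Treg, 10.13 and 10.27 in WT Treg, 10.19 and 9.95 in NIKtg Tconv, and 10.50 and 10.29 in WT Tconv. The NIKtg Treg arrays lay above all others. It rose by 0.66 in Treg (SE 0.13, adjusted p = 0.0154) and gave -0.33 in Tconv (adjusted p = 0.0991), with a called difference of 0.99 (SE 0.19, adjusted p = 0.0062). The Treg call was lost without NIKtg Treg 1, WT Treg 1 or WT Treg 2 (adjusted p up to 0.0928). Hdac10, a polyamine deacetylase, measured 8.76 and 8.66 in NIKtg Treg, 8.18 and 8.15 in WT Treg, 8.16 and 8.04 in NIKtg Tconv, and 8.13 and 7.79 in WT Tconv. Again the NIKtg Treg arrays lay above all others, by 0.54 over WT Treg (SE 0.13, adjusted p = 0.0285, lost without the same 3 arrays, adjusted p up to 0.124). Its difference of effects was 0.40 and not called (adjusted p = 0.124).

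Hdac7, a class IIa enzyme tied to T cell receptor signalling, was set apart by NIKtg Tconv alone. Its levels were 10.19 and 10.04 in NIKtg Treg, 10.02 and 10.02 in WT Treg, 9.08 and 9.36 in NIKtg Tconv, and 10.06 and 9.94 in WT Tconv. Both NIKtg Tconv arrays lay below the 6 others, by 0.78 below WT Tconv (difference -0.78, SE 0.13, adjusted p = 0.00419), while Treg gave 0.10 (adjusted p = 0.612). The difference of effects was 0.87 (SE 0.18, adjusted p = 0.00859). Hdac4, of the same class, fell by 0.46 in Tconv (SE 0.14, adjusted p = 0.0463), at 8.29 and 8.16 in NIKtg Tconv against 8.77 and 8.59 in WT Tconv. That call is close to the threshold and was lost without any 1 of WT Treg 1, WT Treg 2 or the 4 Tconv arrays, with adjusted p up to 0.209. Hdac5, the third tested member of the class, was not called for NIK and was lower in WT Treg than WT Tconv by 0.41 (difference -0.41, adjusted p = 0.0338, lost without any 1 of the 4 WT arrays or the 2 NIKtg Tconv arrays, adjusted p up to 0.169). The mean of the Hdac5 probes gave -0.30 and ended that call (adjusted p = 0.176).

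All 8 tested deacetylases lay above 0 in NIKtg Treg against WT Treg, beside 58% of all genes, and 2 of them were called, beside 10.4% of all genes called higher. Scaling each array to the median of all its probes left 2 of the 8 above 0 and none called. In NIKtg Treg against NIKtg Tconv, 6 of the 8 were called higher, beside 23.1% of all genes. Under that scaling none was called higher and 2 were called lower, and Hdac3 and Hdac4 turned below 0. The largest were Hdac7 at 0.89 (adjusted p = 0.00159), Hdac6 at 0.82 (adjusted p = 0.00918) and Hdac1 at 0.80 (adjusted p = 0.0031). Leaving out NIKtg Tconv 1 ended the Hdac6 call (adjusted p = 0.0637), and leaving out NIKtg Tconv 2 that of Hdac10 (adjusted p = 0.0582). The calls of Hdac3 and Hdac4 ended without any 1 of NIKtg Treg 1, NIKtg Tconv 1 or NIKtg Tconv 2, Hdac3 also without NIKtg Treg 2 and Hdac4 also without either WT Treg array (adjusted p up to 0.163). Without NIKtg Treg 1 the Hdac4 value was 0.30, against 0.47 with all arrays. Hdac6, a cytoplasmic tubulin deacetylase, was called for NIK in Treg by its dimmer second probe at 0.87 (adjusted p = 0.00571 over probes), while the brighter gave 0.35 (adjusted p = 0.193). Hdac2 and Hdac3 were not called for NIK in either subset.

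**Figure D4:**
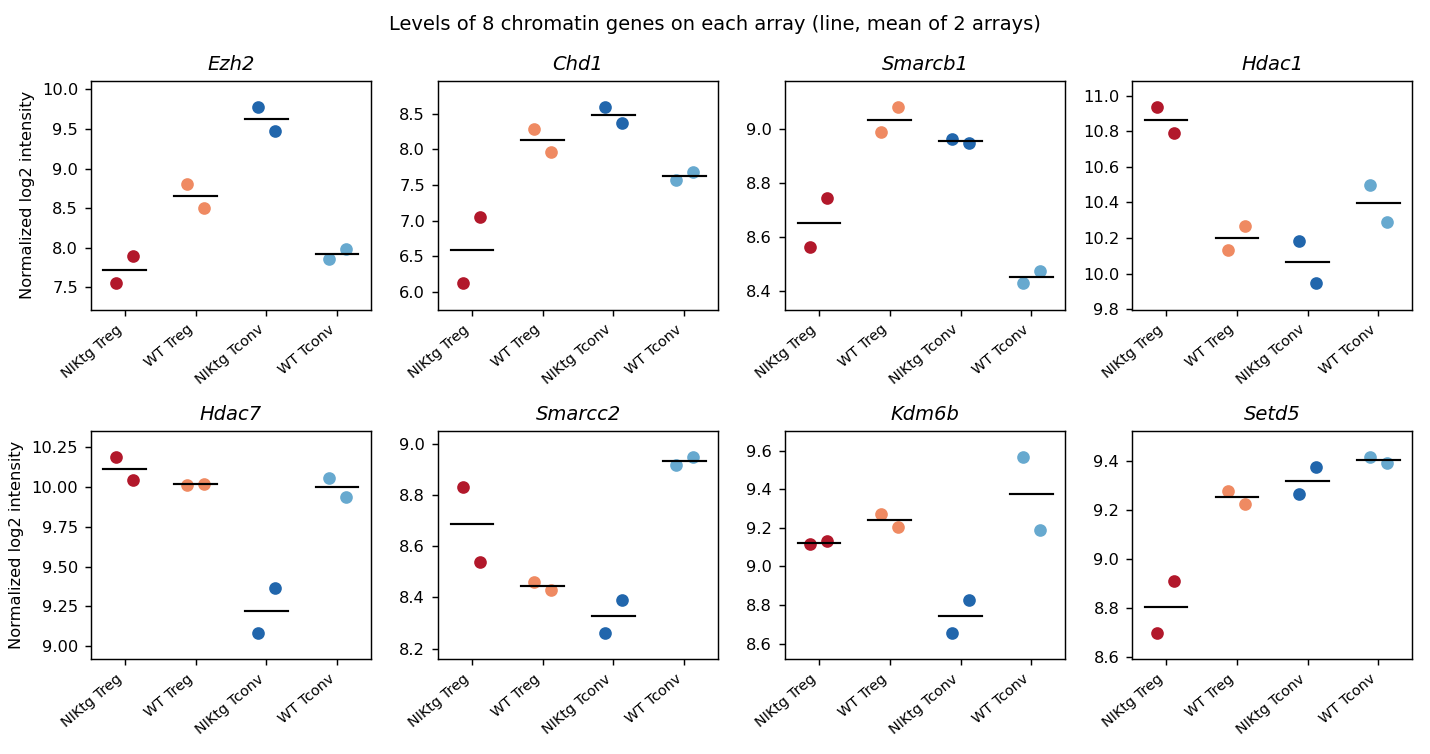
Normalized log2 intensity of 8 chromatin genes on each of the 8 arrays (points, 2 per group) with the group mean (line), and a scale of its own for each gene. NIKtg Treg stands apart for Chd1, Hdac1 and Setd5, and NIKtg Tconv for Ezh2, Hdac7 and Kdm6b.

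The 2 demethylases called for NIK, Kdm6b and Kdm5b, were called in Tconv, where 30.1% of all genes were called. Kdm6b, which removes the mark that Ezh2 writes, measured 9.12 and 9.13 in NIKtg Treg, 9.27 and 9.21 in WT Treg, 8.66 and 8.83 in NIKtg Tconv, and 9.57 and 9.19 in WT Tconv. Both NIKtg Tconv arrays were the lowest of the 8, and the difference in Tconv was -0.64 (SE 0.14, adjusted p = 0.0142), with -0.12 in Treg and an uncalled difference of effects of 0.52 (adjusted p = 0.0738). Opposite calls for the writer Ezh2 and the eraser Kdm6b thus stood side by side in NIKtg Tconv. Kdm6b's second probe gave -0.33 there (adjusted p = 0.25 over probes). The mean of both probes, -0.48, ended the call (adjusted p = 0.0604), and it was also lost without NIKtg Tconv 1 or WT Tconv 1 (adjusted p up to 0.0976). Kdm6a, the other eraser of this mark, gave -0.01 in Treg and 0.14 in Tconv (adjusted p = 0.947 and 0.395).

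Kdm5b, a demethylase of histone H3 lysine 4, was a dim gene. It measured 6.03 and 6.42 in NIKtg Treg, 6.22 and 5.83 in WT Treg, 5.67 and 5.89 in NIKtg Tconv, and 6.78 and 6.45 in WT Tconv. Its arrays overlapped in Treg and were apart in Tconv, where it fell by 0.83 (SE 0.20, adjusted p = 0.0181, lost without NIKtg Tconv 1 or WT Tconv 1, adjusted p up to 0.117). The difference of effects was 1.03 (SE 0.28, adjusted p = 0.0237, lost without NIKtg Treg 2, WT Treg 2, NIKtg Tconv 1 or WT Tconv 1, adjusted p up to 0.0833). Kdm8, a dioxygenase first described as a demethylase, gave 0.44 in Treg and -0.50 in Tconv, neither called, with a called difference of 0.94 (SE 0.24, adjusted p = 0.0178, lost without WT Treg 1, WT Treg 2 or NIKtg Tconv 2, adjusted p up to 0.0591). Of the 10 demethylases tested, none was called in Treg by limma on the probe used, against 19.9% of all genes. In Treg 1 of them, Kdm8, had an unadjusted p under 0.05. A dimmer probe of Kdm3a was called there, at -0.47 (adjusted p = 0.0448 over probes). Kdm1a, the flavin-dependent demethylase of CoREST, gave -0.10 in Treg and -0.15 in Tconv (adjusted p = 0.599 and 0.415).

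Of the 11 tested KMT and SETD genes, 1 was called in Treg and none in Tconv by limma, against 19.9% and 30.1% of all genes. In Tconv 1 of them, Setd1a, had an unadjusted p under 0.05. Setd5, a SET domain protein found with deacetylase complexes, measured 8.70 and 8.91 in NIKtg Treg, 9.28 and 9.22 in WT Treg, 9.27 and 9.38 in NIKtg Tconv, and 9.42 and 9.39 in WT Tconv. NIKtg Treg lay below all other arrays, by 0.45 below WT Treg (difference -0.45, SE 0.11, adjusted p = 0.0305, lost without NIKtg Treg 1, WT Treg 1 or WT Treg 2, adjusted p up to 0.151). Its difference of effects was -0.36 and not called (adjusted p = 0.104). Setd1a, which methylates histone H3 lysine 4, gave 0.38 in Treg and -0.41 in Tconv, neither called. Its difference of effects was 0.78 (SE 0.20, adjusted p = 0.0179, lost without NIKtg Treg 1, WT Treg 1, NIKtg Tconv 1 or WT Tconv 1, adjusted p up to 0.058). Setdb1 and Setd2, which methylate lysines 9 and 36 of histone H3, were not called in any comparison. By the probe used, all 11 genes lay below 0 in WT Treg against WT Tconv under each of the 5 scalings tried, between -0.71 and -0.06 under quantile normalization, where 42.5% of all genes lay above 0. Kmt5a, Kmt5b and Setd4 each had another kept probe above 0. Only Setd4 was called there (8.01 and 7.95 in WT Treg, 8.74 and 8.63 in WT Tconv, adjusted p = 0.0217, lost without any 1 of these 4 arrays, adjusted p up to 0.108). Its second probe gave 0.11 (adjusted p = 0.722 over probes), and the mean of both, -0.30, ended the call (adjusted p = 0.0592).

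In the SWI/SNF family, Smarcb1, a core subunit of SWI/SNF complexes, went the way of Ezh2. It measured 8.56 and 8.74 in NIKtg Treg, 8.99 and 9.08 in WT Treg, 8.96 and 8.95 in NIKtg Tconv, and 8.43 and 8.48 in WT Tconv. No arrays of the groups compared overlapped. It fell by 0.38 in Treg (SE 0.11, adjusted p = 0.0434) and rose by 0.50 in Tconv (SE 0.11, adjusted p = 0.0119), with a difference of effects of -0.88 (SE 0.15, adjusted p = 0.00412). The Treg call was lost without any array other than NIKtg Treg 2 (adjusted p up to 0.203), and the Tconv call without NIKtg Tconv 1, NIKtg Tconv 2 or WT Tconv 1 (adjusted p up to 0.071). Smarcb1 was also 0.58 higher in WT Treg than in WT Tconv (SE 0.11, adjusted p = 0.00736, lost without WT Treg 2, adjusted p = 0.057).

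Smarcc2, a scaffold subunit of the same complexes, ran opposite to Smarcb1. It measured 8.83 and 8.54 in NIKtg Treg, 8.46 and 8.43 in WT Treg, 8.26 and 8.39 in NIKtg Tconv, and 8.92 and 8.95 in WT Tconv. WT Tconv lay above every other array, and NIKtg Tconv fell by 0.61 (SE 0.12, adjusted p = 0.0104, lost without NIKtg Tconv 1, adjusted p = 0.0758). The difference of effects was 0.85 (SE 0.18, adjusted p = 0.00877). The catalytic subunits were not called for NIK: Smarca4 gave 0.23 in Treg and -0.17 in Tconv (adjusted p = 0.241 and 0.349), and Smarca2 gave 0.23 and -0.10 (adjusted p = 0.25 and 0.605). Smarca2 was lower in WT Treg, at 11.22 and 11.14, than in WT Tconv, at 11.65 and 11.71 (adjusted p = 0.0304, lost without any 1 of these 4 arrays, adjusted p up to 0.147). Smarcal1, an annealing helicase, measured 8.84 and 8.75 in WT Treg and 8.28 and 8.36 in WT Tconv (adjusted p = 0.0169, lost without WT Treg 1, WT Treg 2 or WT Tconv 1, adjusted p up to 0.10).

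Chd1, a remodeller of active genes, showed the largest fall in Treg. Its levels were 6.12 and 7.05 in NIKtg Treg, 8.29 and 7.97 in WT Treg, 8.59 and 8.38 in NIKtg Tconv, and 7.57 and 7.69 in WT Tconv. NIKtg Treg lay below all other arrays, and its own 2 arrays lay farther apart than those of any other group. Chd1 fell by 1.55 in Treg (SE 0.28, adjusted p = 0.0106, lost without WT Treg 1, adjusted p = 0.0684) and gave 0.85 in Tconv (SE 0.28, adjusted p = 0.0525). The difference of effects was -2.40 (SE 0.39, adjusted p = 0.00353). A second probe gave -0.95 in Treg, 0.87 in Tconv and -1.83 for the difference, all called over probes. Chd4, the ATPase of the NuRD deacetylase complex, measured 9.68 and 9.66 in NIKtg Tconv against 10.16 and 10.05 in WT Tconv, a fall of 0.44 (SE 0.10, adjusted p = 0.0177, lost without NIKtg Tconv 1, NIKtg Tconv 2 or WT Tconv 1, adjusted p up to 0.0927). In Treg it measured 10.18 and 10.08 in NIKtg cells and 10.00 and 9.89 in WT cells and was not called. Its difference of effects was 0.62 (adjusted p = 0.0139, lost without WT Treg 2, adjusted p = 0.0524). A second Chd4 probe gave -0.42 in Tconv (adjusted p = 0.0478 over probes). The third went the other way, at 0.28 in Tconv (adjusted p = 0.422) and -0.44 for the difference (adjusted p = 0.341). The mean of the probes ended both calls, at -0.19 in Tconv (adjusted p = 0.302) and 0.24 for the difference (adjusted p = 0.322).

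Chd1l, a remodeller of the DNA damage response, was called in every comparison by its brighter probe, and its dimmer probe, detected on 5 arrays, went the other way. The brighter probe gave 0.39 in Treg, -0.52 in Tconv and 0.91 for the difference. The dimmer was detected on no NIKtg Treg array and was at least 1.32-fold lower there than in WT Treg (adjusted p = 0.0174 over probes). In Tconv it gave 0.85 (adjusted p = 0.0336), with 1 of the 2 WT Tconv arrays detected. The brighter probe's Treg call ended without any 1 of the 4 Treg or 2 NIKtg Tconv arrays, and its Tconv call without NIKtg Tconv 1 or WT Tconv 1 (adjusted p up to 0.185). No direction for Chd1l is drawn from these data. Of 18 genes read by several probes, all probes of a gene had 1 sign for 10 in Treg, 12 in Tconv and 10 for the difference. Probes called in opposite directions for the difference belonged to Chd1l and Kdm3a. The other 26 tested genes rest on a single probe, Hdac1, Hdac7, Smarcb1 and Smarcc2 among them.

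**Figure D5:**
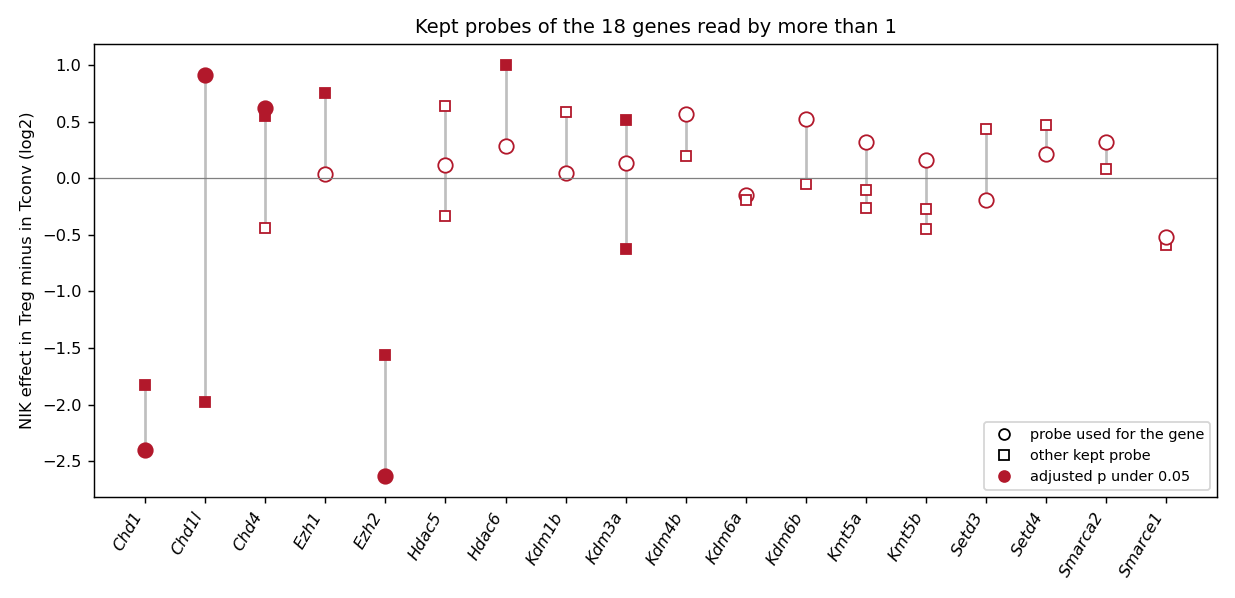
NIK effect in Treg minus that in Tconv (log2) for every kept probe of the 18 genes with more than 1, with the probe used as a circle, other probes as squares and calls filled. Chd1 and Ezh2 lie below 0 on both of their probes, and Chd1l lies on opposite sides. The dimmer probes of Ezh2 and Chd1l were not above background in every group, so their points are not measured sizes.

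Among other chromatin genes, counts were mixed. The list counts here and in the next paragraph stand beside the calls over all genes. Those were 10.4% higher and 9.45% lower in Treg, and 12.9% higher and 17.2% lower in Tconv. Of 12 histone acetyltransferases, 1 rose and 2 fell in Treg, and 1 rose and 3 fell in Tconv. Kat5, the catalytic subunit of TIP60 complexes, was one of each, with -0.67 in Treg and 0.53 in Tconv (adjusted p = 0.0124 and 0.018, lost without NIKtg Treg 1 or WT Treg 2 and without NIKtg Tconv 1 or WT Tconv 1, adjusted p up to 0.116). Of 13 tested partners of HDAC complexes, 1 rose and 1 fell in Treg, and 3 rose and 5 fell in Tconv, where Sap30 of the Sin3 complex gave 1.24 (adjusted p = 0.000555). Mbd3 of NuRD differed by -1.12 in Treg and 1.17 in Tconv (adjusted p = 0.0241 and 0.0142), opposite to Gatad2b of the same complex, at 0.66 and -0.64 (adjusted p = 0.0161 and 0.0115). Both were lost in Treg without NIKtg Treg 1, WT Treg 1 or WT Treg 2, and in Tconv without NIKtg Tconv 1 or WT Tconv 1, and Mbd3 there also without WT Tconv 2 (adjusted p up to 0.123). Without NIKtg Treg 1 the Treg value of Mbd3 was -0.68 (adjusted p = 0.0553). Of 6 tested DNA methylation genes 1 rose and 1 fell in each subset, and Uhrf1, which recruits the maintenance methyltransferase, gave -0.49 in Treg and 0.74 in Tconv (adjusted p = 0.0401 and 0.00634). The Treg value lost its call without any 1 of the Treg arrays other than NIKtg Treg 2 and without either NIKtg Tconv array (adjusted p up to 0.187).

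Of 14 other histone methyltransferases, 1 rose and 1 fell in Treg, and 1 rose and 3 fell in Tconv, with Smyd5 at -1.24 and 0.48 (adjusted p = 0.00221 and 0.04, the second lost without either WT Treg array, either NIKtg Tconv array or WT Tconv 1, where it was 0.31, adjusted p up to 0.204). Among 6 other SNF2 ATPases, 2 rose in Treg and 1 fell in Tconv. Ino80, the ATPase of the complex named after it, was in both counts at 0.60 and -0.79 (adjusted p = 0.0156 and 0.00311, the first lost without NIKtg Treg 1, WT Treg 1 or WT Treg 2, adjusted p up to 0.0908). The 8 partners of KMT2 enzymes gave 1 rise in Treg and 1 fall in Tconv, the 7 other SWI/SNF subunits 1 rise in each, and the 9 histone chaperones no limma call in Treg (2 at an unadjusted p under 0.05) and 2 rises and 2 falls in Tconv. The 12 Polycomb repressive complex 1 genes gave 1 rise in Treg and no limma call in Tconv (2 at an unadjusted p under 0.05), and the 6 sirtuins no call in Treg (1 at an unadjusted p under 0.05) and 1 fall in Tconv.

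Other cell types' markers differed between groups. B cell markers (5 of 9 tested, Pax5 detected on no array) summed to 7114 and 6434 in NIKtg Treg, 3316 and 3011 in WT Treg, 2802 and 2608 in NIKtg Tconv, and 1182 and 976 in WT Tconv. Cd74, H2-Aa and H2-Ab1, of antigen presentation, rose in both subsets, by 1.05, 1.69 and 1.73 in Treg and by 1.70, 0.70 and 0.86 in Tconv. Cd79b, of the B cell receptor, fell in both, by 0.47 in Treg (adjusted p = 0.0279) and by 0.59 in Tconv (adjusted p = 0.00861). Cd22 rose by 2.79 in Tconv (adjusted p = 0.00133) and was not called in Treg.

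CD8 and NK cell markers (5 of 8 tested, Cd8a, Ncr1 and Gzma detected on no array) summed to 4287 and 4470 in NIKtg Treg, 3644 and 4023 in WT Treg, 6202 and 5705 in NIKtg Tconv, and 6498 and 7864 in WT Tconv. None was called by limma in Treg (1 at an unadjusted p under 0.05). In Tconv 1 rose and 3 fell, beside 12.9% and 17.2% of all genes, and the list median was -1.23. Prf1, the brightest of the 5 on every array, read 11.8 and 11.7 in NIKtg Tconv against 11.9 and 11.8 in WT Tconv. In the same order Klrb1c, detected on 2 arrays, read 5.1 and 5.4 against 7.8 and 8.7. Klrd1 read 9.0 and 8.9 against 9.6 and 10.8, and Cd8b1 8.8 and 9.2 against 10.4 and 10.1. Xcl1 went the other way, at 10.7 and 10.3 against 8.6 and 9.9. Myeloid and dendritic markers (5 of 10 tested, Cd14, Itgax, Itgam and S100a9 detected on no array) summed to 748 and 696 in NIKtg Treg, 833 and 757 in WT Treg, 451 and 349 in NIKtg Tconv, and 700 and 594 in WT Tconv. Adgre1, Fcer1g and Tyrobp of these were called lower in both subsets, with Adgre1 detected on 4 arrays and Tyrobp on 3. Lyz1 and Lyz2, also tested, were not called in either subset. Lyz1 read 8.82 and 8.54 in NIKtg Treg against 8.38 and 8.04 in WT Treg. Lyz2 read 7.70 and 7.46 against 7.24 and 6.75. In Tconv their means were lower in NIKtg cells. Of 6 erythroid and platelet markers 1 was tested, Hba-a1, which was detected on no NIKtg Treg array, was at least 1.99-fold lower there than in WT Treg (adjusted p = 0.0383) and was not called in Tconv.

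The sorted cells' own markers moved too. Treg markers (8 of 8 tested) summed to 25019 and 28736 in NIKtg Treg, 40281 and 42688 in WT Treg, 4528 and 4285 in NIKtg Tconv, and 4267 and 4435 in WT Tconv. Ctla4, Il2rb, Tnfrsf18 and Tnfrsf4 fell in NIKtg Treg. In NIKtg Tconv, Foxp3 (by 1.89, adjusted p = 0.0054), Ikzf2, Il2ra and Izumo1r fell and Il2rb rose. General T cell markers (7 tested) summed to 46709 and 49230 in NIKtg Treg, 61093 and 57704 in WT Treg, 59023 and 56816 in NIKtg Tconv, and 49741 and 50290 in WT Tconv. Cd28, Cd3g and Cd5 of them fell in NIKtg Treg, and Cd3g rose in NIKtg Tconv. The part of these markers in the chromatin differences was not tested. Xist was detected on no array and Eif2s3y on all 8, which bears on the X-linked genes Kdm5c, Kdm6a and Hdac6.

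The 13 genes that could not be tested were Chd5, Chd6, Ezhip, Hdac8, Hdac9, Hdac11, Kdm2b, Kdm4a, Kdm4d, Setd7, Smarca1, Smarcd1 and Smarcd3. Hdac11 was detected on 1 array and the other 12 on none, with levels between 4.43 and 5.59, so nothing is said of their direction. A further 16 tested genes were Kdm1b, Kdm3a, Kdm4b, Kdm4c, Kdm5c, Kmt2b, Kmt5a, Kmt5b, Kmt5c, Setd3, Setd6, Smarcad1, Smarcc1, Smarcd2, Smarce1 and Chd8. By the probe used, limma called none of these 16 for NIK in either subset, which follows from their choice, as genes called for NIK were given above. Of the 16, 2 had an unadjusted p under 0.05 in Treg and 1 in Tconv. Kdm5c was detected on 3 arrays, 1 of NIKtg Treg and 2 of WT Tconv, and on no WT Treg or NIKtg Tconv array. Smarcc1, a scaffold subunit of SWI/SNF, was called once, at -0.51 in NIKtg Treg against NIKtg Tconv (adjusted p = 0.0498). That call was lost without any array other than NIKtg Treg 2 (adjusted p up to 0.242), with -0.26 without NIKtg Treg 1, and in the deposited normalized values (-0.26, adjusted p = 0.0583).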

How the data were processed

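Sorted T cell RNA was amplified and labelled with the MessageAmp Premier kit and hybridised to Illumina arrays, per the labels' protocols. The deposited table holds unnormalized probe intensity on a linear scale and a detection p-value for each array, per the file headers. GenomeStudio 2010.1 is named in the submitters' processing notes. A second deposited table of normalized intensity served as an alternative. From these, log2 values were computed here rather than taken from the authors' deposited tables: limma 3.58.1 in R 4.3.3 corrected background with an offset of 16 (negative controls inferred from detection p) and quantile-normalized. A probe was kept where 2 or more of 8 arrays had detection p below 0.01 (11526 of 25697), and the brightest probe stood for a gene. Of the 25697 probes, 23978 had a platform gene symbol. One limma fit over all 8 arrays held 1 coefficient per group (4 residual degrees of freedom), and p-values were adjusted over all 7926 genes, or over 10819 kept named probes where stated. Precision is limited by having only 2 arrays a group.

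Every gene of these families with a probe in the table is accounted for. Kmt2a, Kmt2d, Chd7 and Smarca5, which the name rule would take, are not analysed here. By the rule set, per-array values were due for called genes, up to 12 per comparison of NIK and 8 per comparison of Treg with Tconv. They were also due for a set of catalytic members and for the largest uncalled changes. Fewer were printed. For several genes, Chd1l, Setd1a, Kdm8, Hdac6, Ezh1 and Smarca4 among them, only differences or calls were given. In other lists the rule was to name up to 2 called genes by the smallest adjusted p. More were named for proliferation genes, partners of HDAC complexes and cell type markers. The gene names, the lists and these rules were chosen with earlier results of these data known. Same-numbered arrays deviated together at r of -0.02 to 0.14, so the numbers were not used as pairs. The pipeline was tested on simulated data. Alternatives covered scaling, offset, filter, probe choice, the fit and leaving out each array.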

Additional observations from a re-analysis of the deposited data

Results flagged for a closer look

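The NIK effect differed between Treg and Tconv, by limma's test of the difference of the effects, for 11 chromatin genes, against 39.2% of all genes. Values are the effect in Treg minus the effect in Tconv in log2 units, with 2 arrays in each of the 4 groups. Below 0 were Ezh2 -2.63 (adjusted p = 0.000537), Chd1 -2.40 (adjusted p = 0.00353), Smarcb1 -0.88 (adjusted p = 0.00412). Above 0 were Chd1l 0.91 (adjusted p = 0.00336), Hdac1 0.99 (adjusted p = 0.0062), Hdac7 0.87 (adjusted p = 0.00859), Smarcc2 0.85 (adjusted p = 0.00877), Chd4 0.62 (adjusted p = 0.0139), Kdm8 0.94 (adjusted p = 0.0178), Setd1a 0.78 (adjusted p = 0.0179), Kdm5b 1.03 (adjusted p = 0.0237). Chd1l is read in opposite directions by its probes.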

How the results depend on the processing

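The Ezh2 call in Tconv, its difference between subsets and its NIKtg Treg minus NIKtg Tconv value, Hdac7 in Tconv, Chd1 for the difference and for NIKtg Treg minus NIKtg Tconv, and Smarcb1 for the difference kept direction and call in every alternative run. Over all alternatives 729 values of called genes kept both, 181 lost the call and 10 reversed. In the order NIK in Treg, NIK in Tconv, their difference, WT Treg minus WT Tconv and NIKtg Treg minus NIKtg Tconv, calls numbered 7, 9, 11, 9 and 13. Leaving out 1 array gave 0 to 7, 2 to 12, 8 to 16, 2 to 11 and 5 to 15, where an arm of 1 array is assumed to vary like the others. Median scaling gave 5 calls in Tconv, 7 for the difference, 2 for WT and 23 for NIKtg cells. It reversed Chd1l in Treg (-0.060) and, for NIKtg Treg minus NIKtg Tconv, Chd1l (-0.32), Chd4 (-0.083), Hdac3 (-0.15), Hdac4 (-0.13) and Setd1a (-0.000384). Scaling on detected probes, chosen after seeing the data, gave 5, 9, 14, 10 and 13 calls and reversed none. The mean of probes reversed Chd1l in Treg (-0.37), Tconv (0.16), the difference (-0.53) and NIKtg Treg minus NIKtg Tconv (-0.57). Without the detection filter 4 were called in Treg and 5 for WT. Every probe as its own feature gave 13 in Treg, 19 for the difference and 22 for NIKtg cells, where more features were tested. A fit of only the groups compared gave 4 in Treg, and cannot give the difference. The deposited normalized values gave 14 in Tconv, and a trended robust fit 15 in Tconv and 17 for the difference. The cause was not tested for these changes. With the replicate block, where the numbers do not pair the samples, 6, 10, 14, 10 and 12 were called. The 13 genes detected on at most 1 array could not be tested.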
